A study of Arabidopsis thaliana with 12 samples.

Results

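The actin genes of Arabidopsis thaliana are the 8 loci ACT1 (AT2G37620), ACT2 (AT3G18780), ACT3 (AT3G53750), ACT4 (AT5G59370), ACT7 (AT5G09810), ACT8 (AT1G49240), ACT11 (AT3G12110) and ACT12 (AT3G46520), chosen by locus ID. Of these 8, the same 6 had a row in each of 2 deposited tables, among 18366 genes in the pfd4 table and 19397 genes in the 6x_pfd table, and ACT4 and ACT12 had a row in neither. The tables had passed a minimum-RPKM filter, per their names, so the 6 genes are those measured and not the whole family. Messenger RNA was sequenced from whole seedlings of ecotype Col-0 grown in vitro, with 12 samples in 4 groups of 3. The first comparison sets pfd4 seedlings of 14 days against WT seedlings of 14 days, both labelled LD, which usually stands for long days, and ZT1, and titled mock with no treatment described. The second sets 6x_pfd seedlings of 7 days against WT seedlings of 7 days, both labelled LL, the usual name of continuous light. The labels name no alleles, and the mutants share no WT libraries. The design text calls the samples biological, and nothing in it says whether they came from separate cultures.

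Actin polymerises into the filaments that carry organelle movement and guide tip growth and cell expansion in plants. New actin chains, like tubulin chains, are handed by prefoldin, the 6-subunit chaperone complex mutated here, to the cytosolic chaperonin CCT for folding. The Arabidopsis family has a vegetative class, ACT2, ACT7 and ACT8, which predominates in leaves, stems and roots, and a reproductive class, ACT1, ACT3, ACT4, ACT11 and ACT12, known mainly from pollen, ovules and embryos. ACT2 and ACT8 act together in root hair growth, and ACT7 responds to auxin and is needed for normal germination and root growth.

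The coding sequences show how far reads of the family can be told apart, since each gene encodes nearly the same protein. The first 60 coding bases of the 6 measured genes follow, from RefSeq on build TAIR10.1 and read on the plus strand, with capitals where a base differs from ACT2. They lie at chr3:6475535-6475594 for ACT2, chr1:18216539-18216598 for ACT8, chr5:3052809-3052868 for ACT7, chr2:15779761-15779820 for ACT1, chr3:19915924-19915983 for ACT3 and chr3:3858116-3858175 for ACT11, each in the first coding exon.
ACT2: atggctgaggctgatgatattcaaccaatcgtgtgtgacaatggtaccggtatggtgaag
ACT8: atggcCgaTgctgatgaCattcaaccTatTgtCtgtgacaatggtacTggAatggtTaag
ACT7: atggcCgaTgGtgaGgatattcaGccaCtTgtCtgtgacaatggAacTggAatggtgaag
ACT1: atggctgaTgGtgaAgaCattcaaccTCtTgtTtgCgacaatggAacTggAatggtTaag
ACT3: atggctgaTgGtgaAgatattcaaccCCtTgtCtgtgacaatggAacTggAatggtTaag
ACT11: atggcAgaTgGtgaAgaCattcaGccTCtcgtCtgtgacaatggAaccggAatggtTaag

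Of these 60 bases, 9 differed from ACT2 in ACT8, 11 in ACT7 and in ACT3, 12 in ACT11 and 13 in ACT1. Every one of the 8 coding sequences was 1134 bases long, so they were compared base by base without gaps. The closest pair was ACT2 and ACT8 with 91.01% identical bases (102 differences), followed by ACT1 and ACT3 with 90.48% (108 differences) and by ACT4 and ACT12 with 87.92% (137 differences). All other pairs were at most 84.3% identical, the value of ACT1 and ACT11, and the lowest was 78.31% for ACT2 and ACT12. The longest identical run between ACT2 and ACT8 was 35 bases, and that between ACT1 and ACT3 was 53 bases.

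**Figure D1:**
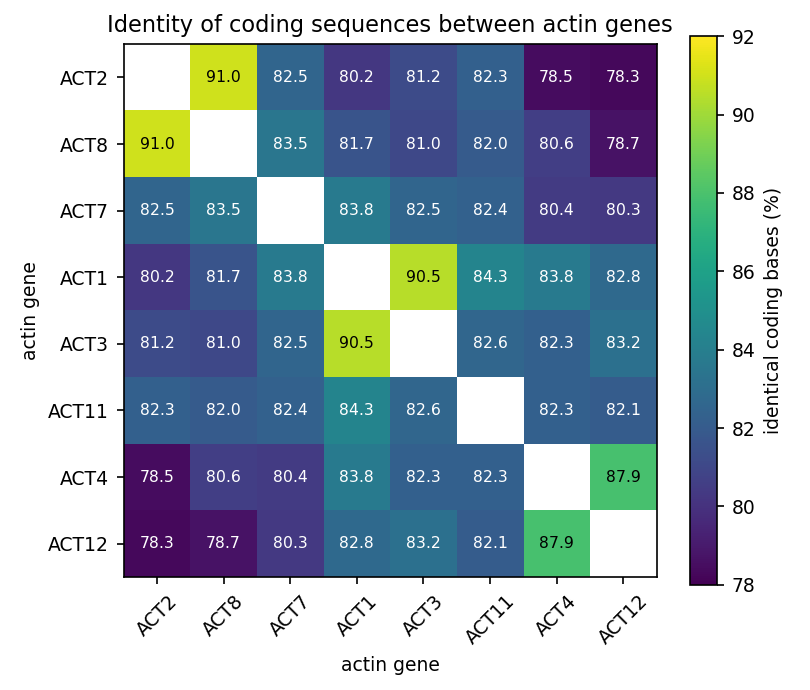
Percent of identical bases between the coding sequences of the 8 actin genes in RefSeq TAIR10.1, with genes on both axes and colour for identity. ACT2 with ACT8 (91.01%), ACT1 with ACT3 (90.48%) and ACT4 with ACT12 (87.92%) stand out, and the other pairs lie between 78.31% and 84.3%.

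Windows of 100 bases taken along each transcript had no exact copy in a transcript of another actin gene. With windows of 50 bases, 5 of 2022 windows of ACT3 and 2 of 1756 of ACT8 occurred in ACT1, and 2 of 1739 of ACT11 in ACT12. None of ACT2 or ACT7 occurred in another gene. For ACT1, 289 of 1802 (16%) occurred in ACT3, ACT4, ACT8 or the overlapping gene AS1. ACT1 had 13.2% of its 100-base windows in common with AS1, a leaf development gene that lies on the opposite strand and overlaps it by 330 bases. In the authors' deposited tables, AS1 had log2 fold changes of -0.07 ± 0.08 in pfd4 (adjusted p = 0.745) and of 0.00 ± 0.10 in 6x_pfd (adjusted p = 0.994). The libraries were stranded, per the labels' protocols. The read length and the use of strand in counting are not given in the sources used here, so whether AS1 reads of the overlap entered the ACT1 counts is not known. ACT12 overlaps RPP13, a disease resistance gene, by 1167 bases, and was not measured.

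Every gene value below is from the authors' deposited tables or computed from them. These give for each gene a mean normalized count over the 6 libraries of a comparison, a log2 fold change of mutant over WT and its standard error (SE, written after ±), and an adjusted p. Group means were computed here from the deposited mean and fold change. Single libraries were not analysed here, and the spread between samples is seen only as the SE. A gene is called where the deposited adjusted p (DESeq2 Wald test, Benjamini-Hochberg over the whole table) is below 0.05. The words fell and rose are used of called genes only. The mutated genes checked the labels: in the authors' deposited tables PFD4 was at -1.99 ± 0.17 in pfd4, where the other 5 prefoldin genes lay within 0.11 of 0. In the authors' deposited table of 6x_pfd, PFD1 (-7.03 ± 0.42), PFD4 (-3.78 ± 0.19), PFD3 (-3.36 ± 0.12), PFD2 (-2.85 ± 0.13) and PFD5 (-1.15 ± 0.13) fell, and PFD6 stood at -0.16 ± 0.10 (adjusted p = 0.217). The RNA is of whole seedlings, in which fewer cells of a type and less RNA per cell cannot be told apart.

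Levels of the actin genes spanned more than an order of magnitude in seedlings, and the vegetative class was far above the reproductive class. Per kb of transcript, the mean normalized count in the 14-day comparison was 11386 for ACT2, 5791 for ACT7 and 3930 for ACT8. It was 639.0 for ACT11, 513 for ACT3 and 483 for ACT1. ACT2 alone made up 50.1% of the summed actin level per kb there, and ACT11, ACT3 and ACT1 made up 2.81%, 2.26% and 2.12%. The step between the classes was 6.15-fold, from ACT8 down to ACT11.

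In the 7-day comparison the mean normalized count per kb was 13021 for ACT2, 7673 for ACT7 and 7172 for ACT8, against 564 for ACT1, 545 for ACT11 and 465 for ACT3. The step between the classes was 12.7-fold there, from ACT8 down to ACT1. The approximate error of a level was taken as the SE of the fold change divided by 2, which holds if libraries of both groups spread alike. By this measure ACT3 and ACT1 at 14 days were 1.06-fold apart, within 2 errors of the difference. ACT7 and ACT8 at 7 days (1.07-fold) and ACT1 and ACT11 at 7 days (1.04-fold) were also within 2 errors, and all other neighbours in the order were farther apart. The order of the 6 genes was the same in each table when levels were taken per kb of coding sequence.

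**Figure D2:**
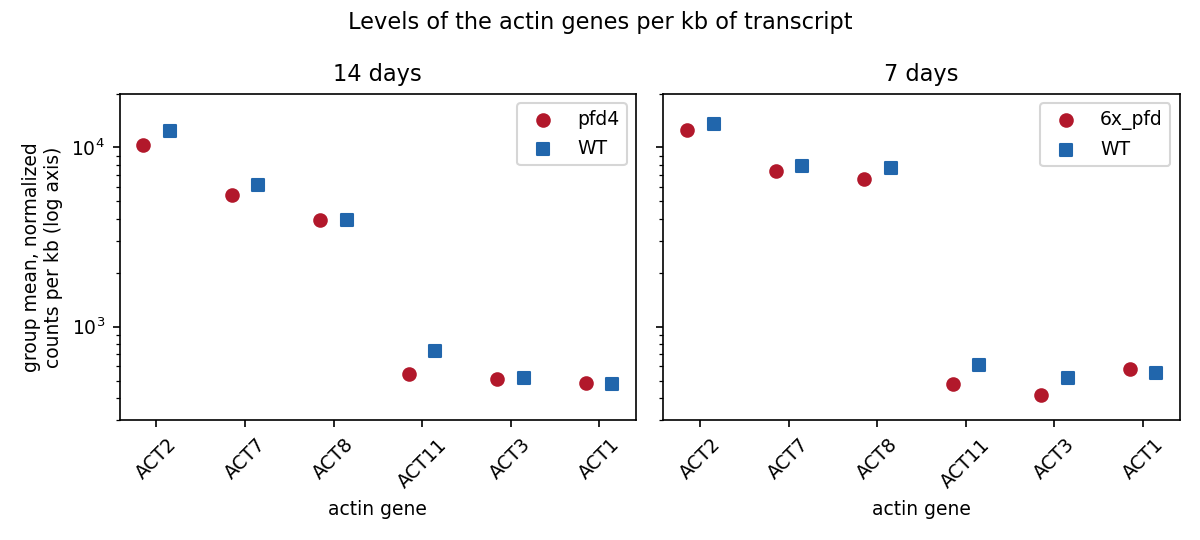
Group means of the 6 measured actin genes in normalized counts per kb of transcript (log axis), with mutant (circles, left) and WT (squares, right) of each experiment. ACT2, ACT7 and ACT8 lie between 3928 and 13536 in every group, and ACT1, ACT3 and ACT11 between 415 and 735.

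As a share of all normalized counts, the 6 genes took 0.146% in the 14-day table and 0.170% in the 7-day table. ACT8 was at 400 CPM (counts scaled to a common table total) in the 7-day table and 243 CPM in the 14-day table, a ratio of 1.65. ACT7 was at 429 and 359 CPM (ratio 1.20), ACT2 at 775 and 751 CPM (1.03) and ACT1 at 32.3 and 30.6 CPM (1.05) in the 7-day and the 14-day table. ACT3 (29.7 and 36.4 CPM, ratio 0.818) and ACT11 (30.1 and 39.1 CPM, ratio 0.770) were lower in the 7-day table. The tables were normalized separately and differ in age, light regime and genotypes, so these ratios are descriptions with no test.

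Beside the reproductive class, none of 7 pollen marker genes had a row in either table. Of 5 floral organ markers, none had a row in the pfd4 table and SEP3 alone had one in the 6x_pfd table. Green leaf, root hair and root endodermis markers had rows in both tables.

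In pfd4 seedlings, ACT11 was the 1 actin gene of 6 called lower, and no actin gene was called higher. The fold changes of 5 of the 6 lay below 0. At the same threshold 7.75% of all 18363 tested genes were called, 3.81% lower and 3.94% higher in pfd4, and the members' count is too small to be set apart from that background. The median log2 fold change of the 6 genes was -0.10, against 0.00 over all genes. ACT11, a reproductive-class actin, had an implied mean of 971 normalized counts in pfd4 and 1314 in WT (log2 fold change -0.44 ± 0.15, with adjusted p = 0.0478 from the authors' deposited table). That corresponds to a change of -26.0%, with a 95% interval of -39.7% to -9.36%. The call lies close to the threshold. With fold changes centred on equal totals (the implied group means summed over all genes), adjusted p was 0.0547 by a recomputed Wald test. Centred on reference genes, it was 0.0741 by the same test.

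The abundant vegetative actins did not pass in pfd4. ACT2, the most abundant actin transcript, had implied means of 19953 in pfd4 and 23953 in WT (-0.26 ± 0.12, adjusted p = 0.196, from the authors' deposited table). ACT7 had implied means of 9846 in pfd4 and 11139 in WT (-0.18 ± 0.08, adjusted p = 0.167 in the authors' deposited table). Their 95% intervals run over -29.4% to -1.68% for ACT2 and -20.6% to -1.64% for ACT7, and their unadjusted p-values were 0.0308 and 0.0236. ACT8, the close paralog of ACT2, had implied means of 7090 in pfd4 and 7099 in WT (0.00 ± 0.11, adjusted p = 0.995 in the authors' deposited table), with an interval of -13.9% to 15.8%.

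The paralogs ACT1 and ACT3 had levels that differed between pfd4 and WT by less than their SE. ACT1 had implied means of 900.5 in pfd4 and 887 in WT (0.02 ± 0.11, adjusted p = 0.948 in the authors' deposited table). ACT3 had implied means of 1053 in pfd4 and 1073 in WT (-0.03 ± 0.11, adjusted p = 0.936 in the authors' deposited table). The sign of ACT8 turns with fold changes centred on equal totals, and the signs of ACT8 and ACT3 turn when centred on reference genes.

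In 6x_pfd seedlings, the reproductive-class genes ACT11 and ACT3 were called lower, and no actin gene was called higher. Here too the fold changes of 5 of the 6 lay below 0. The 2 of 6 genes called, both lower, stand beside 33.6% of all 19380 tested genes called, 16.8% lower and 16.9% higher in 6x_pfd. As in pfd4, the members' count is too small to be set apart from that background. The median log2 fold change of the 6 genes was -0.17, against 0.00 over all genes. ACT11 had implied means of 853 in 6x_pfd and 1096 in WT (-0.36 ± 0.08, adjusted p = 7.02e-05, from the authors' deposited table). ACT3, a reproductive-class gene known from pollen, had implied means of 859 in 6x_pfd and 1067 in WT (-0.31 ± 0.09, adjusted p = 0.00228 in the authors' deposited table). These are changes of -22.2% for ACT11 (95% interval -30.3% to -13.0%) and of -19.5% for ACT3 (-28.7% to -9.14%).

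ACT1, the closest relative of ACT3 in sequence, did not pass. It had implied means of 1072 in 6x_pfd and 1016 in WT (0.08 ± 0.09, adjusted p = 0.536 in the authors' deposited table). The ACT1 log2 fold change exceeded that of ACT3 by 0.39 ± 0.12 in 6x_pfd and by 0.05 ± 0.15 in pfd4, with errors that treat both genes as independent. Against ACT11 the ACT1 value was higher by 0.44 ± 0.12 in 6x_pfd and by 0.46 ± 0.18 in pfd4. The pairs were chosen with the values known, so these differences are given without a test. Whether AS1 reads entered the ACT1 counts is not known, as said above.

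Among the vegetative actins of 6x_pfd, ACT8 came nearest to the threshold, with implied means of 11974 in 6x_pfd and 13917 in WT (-0.22 ± 0.10, adjusted p = 0.0657 in the authors' deposited table). ACT2 had implied means of 24110.5 in 6x_pfd and 26097 in WT (-0.11 ± 0.08, adjusted p = 0.299 in the authors' deposited table). ACT7 had implied means of 13457 in 6x_pfd and 14350.2 in WT (-0.09 ± 0.07, adjusted p = 0.333 in the authors' deposited table). The 95% intervals were -24.5% to -2.01% for ACT8, -17.3% to 3.23% for ACT2 and -14.8% to 3.18% for ACT7. In both mutants, the lowest bound among the 3 abundant actins was -29.4%, that of ACT2 in pfd4.

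**Figure D3:**
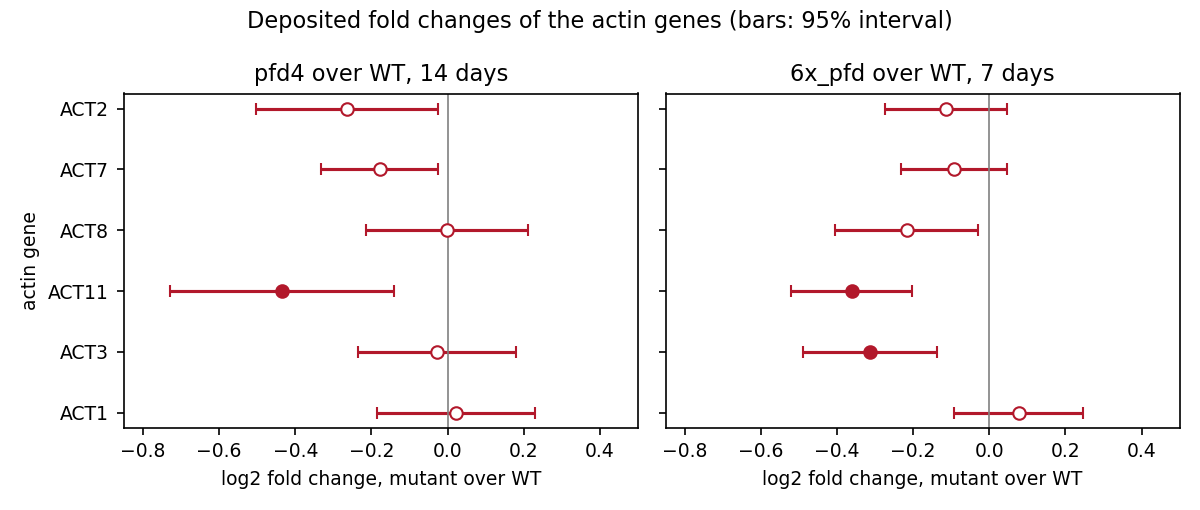
Log2 fold changes of the 6 measured actin genes, pfd4 over WT at 14 days (left) and 6x_pfd over WT at 7 days (right), from the authors' deposited tables, with bars for the 95% interval and filled points for genes called at an adjusted p below 0.05. ACT11 is filled in both panels (-0.44 and -0.36) and ACT3 in the right panel (-0.31), and 5 of 6 points lie below 0 in each.

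Summed over the 6 genes, the actin pool was 39813 normalized counts in pfd4 and 45465 in WT, a change of -12.4%. In the second experiment it was 52325 in 6x_pfd and 57544 in WT, a change of -9.07%. The vegetative class, which carries most of the pool, changed by -12.6% in pfd4 and by -8.87% in 6x_pfd. The reproductive class changed by -10.7% in pfd4 and by -12.4% in 6x_pfd. These sums carry no error, since values per library were not analysed here. Centring on equal totals would remove a log2 shift of -0.01 from the pfd4 values and of -0.08 from the 6x_pfd values, where the log2 change of the pool was -0.14.

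Whether the mutants differed in their effect on an actin gene was tested gene by gene, as the difference between the 6x_pfd and the pfd4 fold changes over the root of their summed squared SEs (two-sided Wald test, Benjamini-Hochberg over the 18035 genes with a p-value in both tables). None of the 6 actin genes passed, against 23.8% of all genes. Before adjustment 1 of them, ACT3, was below 0.05, with a difference of -0.29 ± 0.14 (adjusted p = 0.123). ACT8 differed by -0.22 ± 0.15 (adjusted p = 0.303) and ACT2 by 0.15 ± 0.15 (adjusted p = 0.516). ACT7 (0.09 ± 0.11), ACT11 (0.07 ± 0.17) and ACT1 (0.06 ± 0.14) had adjusted p from 0.619 to 0.824. The 95% intervals of these differences reach from -0.56 for ACT3 to 0.44 for ACT2 on the log2 scale, and genotype, age and light regime cannot be told apart in them.

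Tubulin is another client of prefoldin. Of 15 tubulin genes 8 fell in pfd4 (median -0.33) and 14 fell in 6x_pfd (median -0.51), and none rose, in the authors' deposited tables, where 3.81% and 16.8% of all genes were called lower. The medians of the 6 actin genes were -0.10 in pfd4 and -0.17 in 6x_pfd. ACT11, the actin gene called in both mutants and the lowest of the 6, lay below the tubulin median in pfd4 (-0.44 against -0.33). It lay above that median in 6x_pfd (-0.36 against -0.51). The lowest tubulin value was -0.54 in pfd4 and -0.97 in 6x_pfd. Of 9 CCT subunit genes 3 fell in pfd4 (median -0.18), against 3.81% of all genes, and none passed in 6x_pfd, against 33.6% of all genes called in either direction. All 9 lay between -0.29 and -0.07 in pfd4 and between 0.10 and 0.18 in 6x_pfd. How the actin family as a set differed from the tubulin family was not tested.

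ACT2, ACT7 and ACT8 are widely used as reference genes in quantitative PCR. Of 10 other common reference genes, 1 was called in pfd4, where 7.75% of all genes were called. It was the polyubiquitin gene UBQ10 (-0.30 ± 0.07, adjusted p = 0.00101), in the authors' deposited table. In 6x_pfd the elongation factor gene EF1A4 rose (0.39 ± 0.10, adjusted p = 0.000654) and the glycolytic gene GAPC2 fell (-0.26 ± 0.10, adjusted p = 0.0409) in the authors' deposited table. There 33.6% of all genes were called in either direction. The 10 genes ranged from -0.30 to 0.12 in pfd4 and from -0.26 to 0.39 in 6x_pfd, with medians of -0.03 and 0.00. ACT2, ACT7 and ACT8 lay within those ranges in both comparisons, but the low ends were the called genes UBQ10 in pfd4 and GAPC2 in 6x_pfd. The lowest reference gene not called was PP2AA3 in pfd4 (-0.21) and CBP20 in 6x_pfd (-0.10). Below these lay ACT2 in pfd4 (-0.26) and ACT8 (-0.22) and ACT2 (-0.11) in 6x_pfd. ACT8 in pfd4 and ACT7 in both comparisons lay above them.

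**Figure D4:**
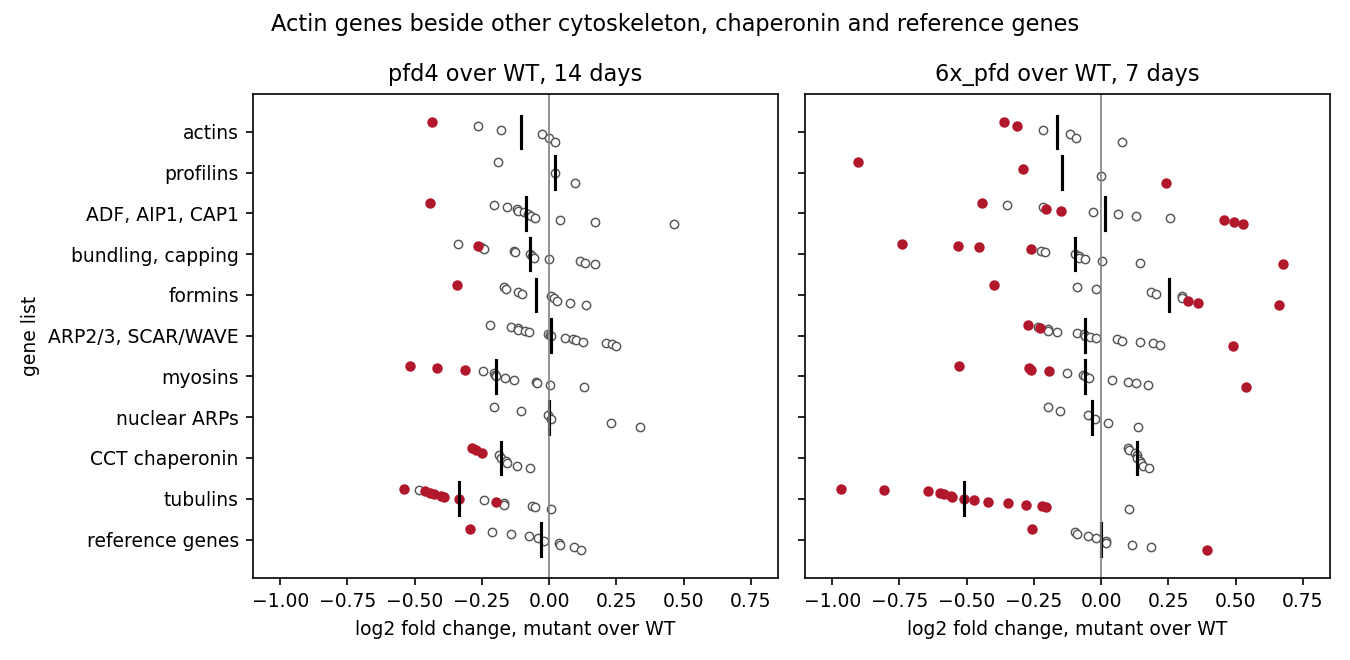
Log2 fold changes (mutant over WT) of the actin genes and of 10 other gene lists, pfd4 at 14 days on the left and 6x_pfd at 7 days on the right, with 1 point per gene, filled where the deposited adjusted p is below 0.05, and a black line at each list's median. The actin medians are -0.10 and -0.17, and the tubulin medians -0.33 and -0.51.

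Genes for proteins that bind or move along actin were set in 7 lists. In the pfd4 table, 6 of 73 were called (8.22%, against 7.75% of all genes), with 0 higher (against 3.94%) and 6 lower (8.22%, against 3.81%). In the 6x_pfd table, 26 of 75 were called (34.7%, against 33.6%), with 10 higher (13.3%, against 16.9%) and 16 lower (21.3%, against 16.8%). Whether these shares differ from those of all genes was not tested. Their median log2 fold changes were -0.07 in pfd4 and -0.05 in 6x_pfd.

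Beside the counts of the single lists that follow, 3.81% of all genes were called lower and 3.94% higher in pfd4. In 6x_pfd 16.8% of all genes were called lower and 16.9% higher, and no list was tested against these shares. Profilins bind actin monomers and feed them to growing filaments. None of 3 profilin genes passed in pfd4, and in 6x_pfd PRF2 (-0.29 ± 0.05) and the pollen-type PRF4 (-0.90 ± 0.27) fell while PRF3 (0.24 ± 0.08) rose in the authors' deposited table. Filament turnover was represented by 12 genes for actin-depolymerizing factors (ADF), their partner AIP1 and CAP1, of which 1 fell in pfd4, and 3 rose and 3 fell in 6x_pfd. AIP1-1 fell in pfd4 (-0.44 ± 0.12) and rose in 6x_pfd (0.53 ± 0.11), and in 6x_pfd ADF1 (-0.44 ± 0.08) and ADF3 (-0.21 ± 0.07) fell and ADF8, an ADF of root hairs, rose (0.49 ± 0.16), per the authors' deposited tables.

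Of 13 genes for proteins that bundle or cap filaments, 1 fell in pfd4, and 1 rose and 4 fell in 6x_pfd. For this list and the nucleators, the all-gene shares were 3.81% lower in pfd4, and 16.9% higher and 16.8% lower in 6x_pfd. The villin gene VLN2 fell in pfd4 (-0.26 ± 0.08) and in 6x_pfd (-0.26 ± 0.06) in the authors' deposited tables. In 6x_pfd the villin genes VLN1 (-0.53 ± 0.09) and VLN3 (-0.45 ± 0.07) and the fimbrin gene FIM2 (-0.74 ± 0.11) fell, and the fimbrin gene FIM4 rose (0.68 ± 0.09), in the authors' deposited table. Nucleators start new filaments. Of 10 formin genes 1 fell in pfd4, and 3 rose and 1 fell in 6x_pfd. FH13 fell in pfd4 (-0.34 ± 0.12) and rose in 6x_pfd (0.66 ± 0.09), and FH16 fell (-0.40 ± 0.10) and FH6 rose (0.32 ± 0.10) in 6x_pfd, in the authors' deposited tables. Of the ARP2/3 complex, which branches filaments, and its SCAR/WAVE activators, none of 16 genes passed in pfd4, and 1 of 17 rose and 2 fell in 6x_pfd, among them SCAR1 (0.49 ± 0.12) and SCAR2 (-0.23 ± 0.07) in the authors' deposited table.

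Myosins are the motors that run on actin. Their counts stand beside 3.81% of all genes called lower in pfd4, and 16.8% lower and 16.9% higher in 6x_pfd. Of 13 myosin genes 3 fell in pfd4, XIF (-0.52 ± 0.17), XIG (-0.42 ± 0.11) and XIK (-0.31 ± 0.09), in the authors' deposited table. In 6x_pfd 4 fell and 1 rose, including XIF (-0.53 ± 0.14), XIH (-0.26 ± 0.07) and XIK (-0.19 ± 0.07) on the lower side and the class VIII myosin gene ATM1 (0.54 ± 0.07) on the higher side, from the authors' deposited table. None of 6 genes for nuclear actin-related proteins, several of which are subunits of chromatin complexes, passed in either comparison. Of all genes, 7.75% were called in pfd4 and 33.6% in 6x_pfd.

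Marker genes of seedling tissues were set beside these values. In pfd4, the 6 root hair markers in the table had a median log2 fold change of -0.50 with none called, the 5 root endodermis markers a median of -0.66 with 2 lower, and the 4 green leaf markers a median of 0.18 with 2 higher. In 6x_pfd, 7 of 7 root hair markers rose (0.47 to 0.96), their summed implied counts being 14288 in 6x_pfd and 8274 in WT. There 3 of 4 green leaf markers fell (median -1.48), and none of 5 root endodermis markers passed. Over all tested genes, 3.81% were called lower and 3.94% higher in pfd4, and 16.8% lower and 16.9% higher in 6x_pfd. The part of these tissue markers in the actin values was not tested.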

How the data were processed

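Stranded mRNA libraries of 12 seedling samples, 3 per group, were made with a plant RNA kit, per the labels' protocols. Per the submitters' processing notes, the authors worked with HISAT2, HTSeq, cutadapt and DESeq2 on build TAIR10. Their versions and settings were not stated. Per the file headers, the deposited tables hold mean normalized counts (a signal, not raw counts), log2 fold changes with their SE on the log2 scale, a Wald score, and p-values with adjusted p-values. Within each table, the authors' adjusted p-values matched a Benjamini-Hochberg adjustment recomputed here, to within 2.67e-15. No values per library were in these tables, so the fallback of the planned design was used, the authors' own test with no refit, and depth per library was not analysed here. The mean normalized counts added up to 29221246 in the pfd4 table, in which 3 genes had no p-value, and to 32374115 in the 6x_pfd table, in which 17 had none.

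Group means assume that the deposited fold change is the ratio of the 2 group means. Coding sequences, lengths and positions came from RefSeq TAIR10.1 and were joined to values by locus ID alone. Level per kb used the annotated transcript with the longest coding sequence. Named genes are the 8 actins, the 6 prefoldin genes and up to 4 called genes with the smallest p of each other list, not all of which are named. UBQ10, EF1A4 and GAPC2 follow that rule, and VLN2 and XIK in 6x_pfd were named for their values in pfd4. Likeness of pattern was not ranked, since 2 comparisons give no pattern. The members and lists were chosen with earlier results of these data known. Python 3.11.15, pandas 2.3.3, numpy 2.4.6 and scipy 1.17.1 were used.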

Additional observations from a re-analysis of the deposited data

Results flagged for a closer look

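No actin gene was flagged. Of the 31 other named genes in both tables, 18 had log2 fold changes that differed between 6x_pfd and pfd4 by the Wald test of the difference (Benjamini-Hochberg over all genes tested in both tables, adjusted p below 0.05), against 23.8% of all genes. Most of these genes were named for a small p in one of the comparisons, which favours a difference, so that share is no result about them. For the prefoldin genes, 6x_pfd minus pfd4 was -7.13 for PFD1, -3.44 for PFD3, -2.88 for PFD2, -1.79 for PFD4 and -1.15 for PFD5. Among genes for actin-binding proteins it was 1.01 for FH13, 0.97 for AIP1-1, 0.93 for FIM4, 0.58 for ATM1 and 0.52 for XIG. It was -0.47 for VLN1 and for FH16, -0.40 for FIM2, -0.36 for ADF1, -0.32 for VLN3 and -0.31 for PRF2. Of the reference genes, EF1A4 differed by 0.47 and UBQ10 by 0.31. Genotype, age and light regime cannot be told apart in these differences.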

How the results depend on the processing

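ACT11 and ACT3 stayed called in 6x_pfd at an FDR of 0.01, under both centrings, with genes of at least 1 CPM and with genes in both tables. The count was 0 in place of 2 where a log2 change of 1 or more was also required, and with the test against a 25% change. The bound of that test was the log2 size of a 25% rise, used in both directions, so for a fall it is less than 25%. In pfd4 the count of 1 became 0 at an FDR of 0.01, with the fold change minimum, with the 25% test and under both centrings, where the shifts removed were -0.01 (equal totals) and -0.03 (reference genes). ACT11 stayed called in pfd4 with genes of at least 1 CPM and with genes in both tables. Over the 7 lists of other cytoskeleton genes, the 6 calls of pfd4 became 2 at an FDR of 0.01 and 0 with the fold change minimum and with the 25% test. The 26 calls of 6x_pfd became 0 with the fold change minimum and 4 with the 25% test. Over all genes, the 1423 calls of pfd4 became 835 at an FDR of 0.01, 198 with the fold change minimum and 201 with the 25% test. The 6519 calls of 6x_pfd became 4804, 1186 and 1956 at the same settings. Centred on equal totals and on reference genes, 1408 and 1420 of all genes were called in pfd4. A stricter threshold lowers a count by its own construction. No actin gene passed the difference between mutants under any of 4 alternatives, with the smallest adjusted p between 0.0823 and 0.268. No paired analysis was possible because the tables hold no values per library. Leaving out replicates, edgeR and a DESeq2 refit were not run for the same reason.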
